A study of Danio rerio with 12 samples.

Results

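Iridophore marker genes were followed in 12 zebrafish (Danio rerio) melanomas. The 7 names listed were pnp4a, ltk, gpnmb, alx4a, alx4b, impdh1b and mpv17, and a gene counted as a member where the deposited gene table carried its name, in either case. This found 6 of the 27827 genes in the table. The name alx4b was not among the table's gene names. A RefSeq synonym (assembly GRCz12tu) links it to the gene that the table calls si:ch73-220n21.1, which is described beside the 6 members and counted apart from them.

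The study set 6 MiniCoopR-MyrRSK melanomas (MyrRSK 1 to 6) against 6 MiniCoopR-GFP melanomas (GFP 1 to 6), by RNA-seq of polyA RNA. MiniCoopR, which both groups carry, is a vector that restores mitfa, the melanocyte master regulator, together with a gene of interest. In the first group that gene is MyrRSK, which by its name is a version of the kinase RSK (ribosomal S6 kinase), and in the second it is the fluorescent protein GFP. The genotype labels name the vector and its insert and no other allele, promoter, strain or age, the treatment is given as none, and nothing states that each tumour came from its own fish, so the p-values speak of the spread among the samples only.

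Iridophores are the reflective pigment cells of fish skin. They arise from the neural crest, as do the black melanophores and yellow xanthophores, and their shine comes from stacked platelets of crystalline guanine, so they make and convert purines at a high rate. Their development in zebrafish depends on the receptor tyrosine kinase Ltk. Several of the 7 genes are used by other cells too: gpnmb is also found in macrophages and other pigment cells, mpv17 acts in mitochondria of many tissues, and alx4 genes act in the mesenchyme of the developing head and limbs of mammals.

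Library totals ran from 61750434 to 72257237 gene counts. The lowest count of any member in a library was 147, for mpv17 in MyrRSK 2. GFP 1 and GFP 2 lay at one end of the first principal component (18.2% of the variance), away from the remaining libraries. Melanophore markers were present in every library, with a summed level of 3850 to 17200 CPM in MyrRSK and 1180 to 34900 CPM in GFP melanomas. CPM are counts scaled to a common library size by TMM, and they are not corrected for gene length, so levels are compared between libraries and not between genes. All 6 members and alx4b had counts in all 12 libraries and passed the filter on low counts.

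None of the 6 members differed between MyrRSK and GFP melanomas past the threshold. With edgeR's quasi-likelihood test and a Benjamini-Hochberg adjusted p under 0.05 over 26866 genes, 0 of 6 were called, where 0.406% of all genes tested were, made up of 0.115% lower and 0.29% higher. No member had all MyrRSK libraries on one side of all GFP libraries, as 1.73% of all genes tested had. At an unadjusted p under 0.05, impdh1b alone was lower and no member was higher, beside 8.33% of all genes lower and 7.18% higher. DESeq2, which called 798 genes higher and 775 lower over the whole table, also called 0 of the 6. The same held for limma-voom, which called 86 higher and 20 lower. All 6 estimates were negative, with a median log2 fold change of -0.48, while 55.1% of all genes tested were negative and their median was -0.0693. Adding alx4b made 7 negative of 7 and a median of -0.69. Among the genes with an adjusted p in the authors' deposited table, 5.17% were under 0.05, and the lowest value there among the 6 members was 0.22, for impdh1b.

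**Figure D1:**
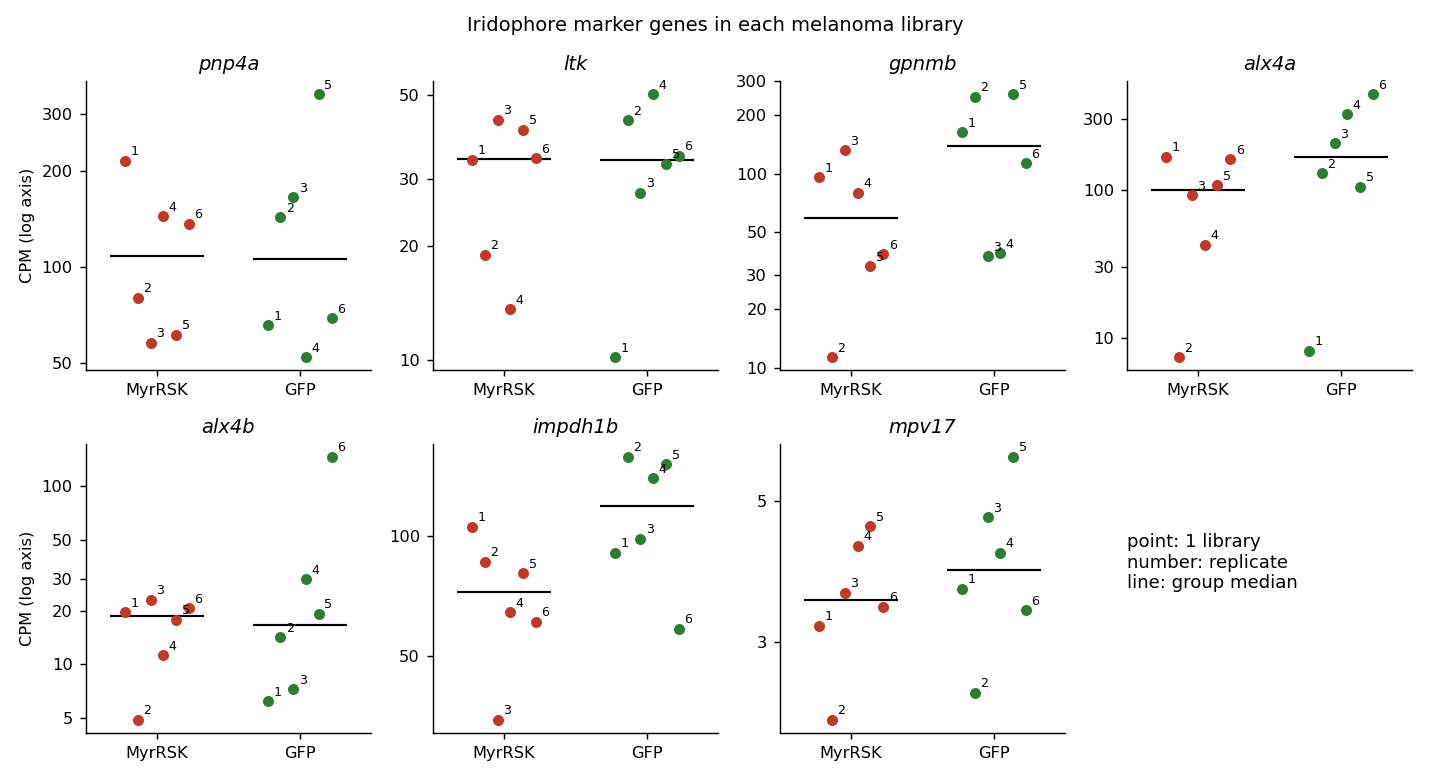
Level of each iridophore marker gene in every library, in CPM on a log axis that differs between panels. Each point is 1 library with its replicate number, MyrRSK left and GFP right, and the line is the group median; the groups overlap in all 7 panels, and alx4a reaches from 7.46 CPM in MyrRSK 2 to 438 CPM in GFP 6.

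The platelets are built of purine. The gene pnp4a (ENSDARG00000057575, chromosome 11, 25223687 to 25231258, Zv9) encodes a purine nucleoside phosphorylase, the type of enzyme that frees guanine from its nucleoside, and is a standard marker of zebrafish iridophores. In MyrRSK melanomas pnp4a lay between 57.9 and 215 CPM with a median of 108. In GFP melanomas it lay between 52.2 and 347 CPM with a median of 106. The groups overlapped almost fully, and GFP 5 held the highest level and GFP 4 the lowest. The log2 fold change of pnp4a was -0.28 ± 0.48 (SE; 95% interval -1.31 to 0.75; edgeR adjusted p = 0.814), and it was 0.23 without GFP 5.

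Next in the same chemistry, impdh1b (ENSDARG00000029524, chromosome 4, 18029098 to 18053665) encodes an IMP dehydrogenase, the enzyme that commits IMP to guanine nucleotides. It had the smallest p of the 6 members. Its levels in MyrRSK 1 to 6 were 105, 86.1, 34.7, 64.5, 80.5 and 61.0 CPM. In GFP 1 to 6 they were 90.7, 157, 98.2, 139, 151 and 58.6 CPM. All 6 MyrRSK libraries lay below the GFP median of 119 CPM, but the groups overlapped: GFP 6 had the second lowest level of all 12 libraries, above MyrRSK 3 only. The mean was 72 ± 24.3 CPM in MyrRSK and 116 ± 39.3 CPM in GFP melanomas (SD, n = 6 each). This gave a log2 fold change of -0.69 ± 0.29 (95% interval -1.31 to -0.06) with an edgeR p of 0.0343 and an adjusted p of 0.279. An exact two-sided permutation test on the difference in mean log2 CPM, -0.69, gave p = 0.0584, unadjusted and 1 of 7 such tests, each with a smallest possible p of 0.00216. With single libraries left out, that exact p ran from 0.0173 (without GFP 6) to 0.126 (without GFP 2) and was under 0.05 in 2 of 12 fits, the other one being that without MyrRSK 1. The unadjusted edgeR p, over the same 12 exclusions, was above 0.05 without MyrRSK 3, 4 or 6 and without GFP 2, 4 or 5, with a highest value of 0.0782.

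Summed macrophage marker levels were 1040 to 2380 CPM in MyrRSK and 520 to 1840 CPM in GFP melanomas, and impdh1b correlated with the mean of these markers at r = -0.583 (rho = -0.517, permutation p = 0.0469, adjusted p = 0.30 over 35 pairs). With the macrophage score as a covariate the log2 fold change of impdh1b was -0.56 (edgeR adjusted p = 0.363). A skeletal muscle score as the covariate gave -1.19 (edgeR adjusted p = 0.491), and impdh1b was called in neither fit. The muscle score, the mean log2 CPM of the skeletal muscle markers, ran from -0.16 to 3.91 in MyrRSK and from -0.46 to 0.37 in GFP melanomas. Every MyrRSK library but MyrRSK 3 lay above all GFP libraries. The score thus nearly follows the groups, and a fit with it cannot well separate muscle from group. The part of macrophages or muscle in the levels of impdh1b was not tested further.

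**Figure D2:**
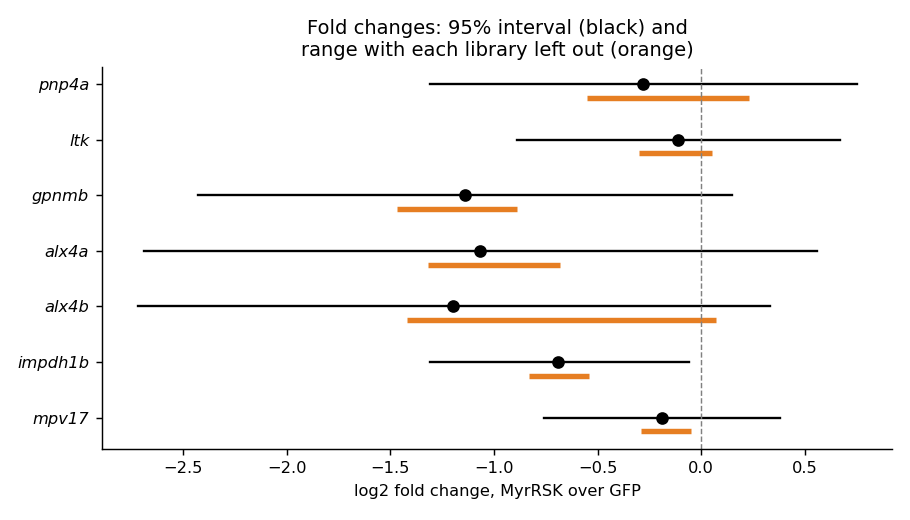
Log2 fold change of MyrRSK over GFP for each iridophore marker gene from edgeR, with its 95% interval. Every estimate is below 0, and among the 7 only the interval of impdh1b, from -1.31 to -0.06, leaves out 0.

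The other genes of purine synthesis and of the step to guanine nucleotides numbered 13 as listed, impdh1b apart, and all 13 were tested. DESeq2 and limma-voom, which called 775 and 20 genes lower over the whole table, each called 2 of these lower and 0 higher. By edgeR 2 of these fell and 0 rose, beside 0.115% of all genes tested lower and 0.29% higher. They were pfas and gart, both enzymes of the chain that builds IMP: pfas averaged 28.7 ± 7.66 CPM in MyrRSK and 232 ± 141 CPM in GFP melanomas (log2 fold change -3.01 ± 0.43, adjusted p = 0.0204), and gart averaged 15.3 ± 4.38 CPM in MyrRSK and 34.7 ± 6.04 CPM in GFP melanomas (-1.18 ± 0.22, adjusted p = 0.0416). Both calls ended when the muscle score, which nearly follows the groups, was a covariate, and also without GFP 2 or without MyrRSK 4. Of these calls 1 ended without any other single library except GFP 6. The median of the 13 was -0.43. The impdh1b paralog impdh1a was at -0.19 ± 0.19 (adjusted p = 0.666) and impdh2 at -0.65 ± 0.36 (adjusted p = 0.409).

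Among 15 tested genes of purine salvage and breakdown, of 17 listed, 0 were called in either direction by edgeR, DESeq2 or limma-voom. On the unadjusted p 2 passed upward and 2 downward, beside 7.18% and 8.33% of all genes tested. The pnp4a relative pnp5a averaged 202 ± 90.0 CPM in MyrRSK and 218 ± 182 CPM in GFP melanomas, a log2 fold change of -0.11 ± 0.49. The estimate for pnp5b was -0.51 ± 0.21 (adjusted p = 0.271). For pnp6 it was 2.88 ± 0.88 (adjusted p = 0.138), with 5.18 CPM in MyrRSK 4 and at most 0.617 CPM in any other library. Adenosine deaminase, ada, was at 0.55 ± 0.31 (adjusted p = 0.423).

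The receptor gene ltk (ENSDARG00000042861, chromosome 17, 31459694 to 31542579) is the one mutated in the zebrafish line shady, which lacks iridophores. Its levels lay between 13.6 and 43.1 CPM in MyrRSK melanomas, with a median of 34.0, and between 10.2 and 50.4 CPM in GFP melanomas, with a median of 33.8. The medians were nearly equal, and the groups overlapped. In GFP 1 the level of 10.2 CPM stood below the 27.7 to 50.4 CPM of the other 5 GFP libraries. The log2 fold change of ltk was -0.11 ± 0.36 (95% interval -0.89 to 0.67, edgeR adjusted p = 0.905). Its sign was not stable: it was 0.04 without MyrRSK 4, 0.05 without GFP 4 and 0.69 ± 0.46 when the muscle score was a covariate.

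Of the 4 listed partners of ltk, 2 were measured, and neither was called by edgeR, DESeq2 or limma-voom or passed an unadjusted p of 0.05. Over all genes tested edgeR called 0.406%, and 15.5% passed that unadjusted p. The related receptor gene alk averaged 1.35 ± 0.468 CPM in MyrRSK and 2.15 ± 1.88 CPM in GFP melanomas (log2 fold change -0.67 ± 0.47), with the highest level, 5.89 CPM, in GFP 6. The ligand gene alkal1, FAM150A in the table, averaged 0.153 ± 0.0674 CPM in MyrRSK and 0.173 ± 0.0894 CPM in GFP melanomas (-0.17 ± 0.45). The ligand genes alkal2a and alkal2b were not analysed here.

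The homeobox gene alx4a (ENSDARG00000088332, chromosome 7, 28019381 to 28050432) varied most between tumours. Its levels in MyrRSK 1 to 6 were 166, 7.46, 91.5, 42.6, 107 and 160 CPM. In GFP 1 to 6 they were 8.24, 128, 204, 320, 104 and 438 CPM. The highest library was 58.7-fold above the lowest, with a 22.2-fold range within MyrRSK and a 53.1-fold range within GFP melanomas. Apart from the low MyrRSK 2 and GFP 1, the GFP libraries reached higher, and all 6 MyrRSK libraries lay below the GFP median, MyrRSK 1 nearly level with it. The mean was 95.8 ± 63.0 CPM in MyrRSK and 201 ± 156 CPM in GFP melanomas, a log2 fold change of -1.07 ± 0.75 (95% interval -2.69 to 0.56; edgeR adjusted p = 0.531).

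That estimate moved with the libraries used. It was -0.68 without GFP 6, -1.48 without both GFP 1 and GFP 2 and 0.40 ± 1.22 when the muscle score was a covariate. In none of these fits was alx4a called. The mean of the muscle markers correlated with alx4a at r = -0.501 (rho = -0.552, permutation p = 0.0857, adjusted p = 0.30). Of 23 listed muscle markers 22 were tested, with a summed level of 230 to 1340 CPM in MyrRSK and 97.5 to 1230 CPM in GFP melanomas. In every library most of that sum was atp2a1, whose log2 fold change was -0.08 ± 0.68, so the sums hide the other markers. Of the 22 estimates 20 were positive and 2 negative, with a median of 2.45. Of the markers 2 rose by edgeR, pvalb2 (log2 fold change 7.11, adjusted p = 0.0485) and myhz2 (5.52, adjusted p = 0.036), where DESeq2 called 13 and limma-voom 0. Over the whole table edgeR called 78 genes higher, DESeq2 798 and limma-voom 86. At an unadjusted edgeR p under 0.05 16 were higher and 0 lower, beside 7.18% and 8.33% of all genes tested. With single libraries left out, edgeR called 0 to 5 of the markers. Counts of 0 in some library occurred for 2 of the muscle markers and for none of the other lists.

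The second homeobox gene, alx4b (si:ch73-220n21.1, ENSDARG00000074442, chromosome 18, 36758328 to 36998792), is given as a polymorphic pseudogene in the table. It lay between 4.89 and 23.0 CPM in MyrRSK melanomas, with a median of 18.7, and between 6.21 and 146 CPM in GFP melanomas, with a median of 16.7. GFP 6 alone reached 146 CPM, and no other library passed 30.1. The log2 fold change of -1.20 ± 0.71 (edgeR adjusted p = 0.442) rested on that library, since it was 0.07 without GFP 6. The authors' deposited table gives alx4b a log2 fold change of -0.69 and no p. Deposited values were smaller in size for gpnmb (-0.73) and alx4a (-0.59) too, beside -1.13 and -1.07 by DESeq2 here. The gap is thus not particular to alx4b.

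Among related homeobox genes, the log2 fold change of alx1 was 1.48 ± 1.06 (edgeR adjusted p = 0.536), with 9.46 CPM in MyrRSK 3 and at most 2.02 CPM in any other library. The mesenchymal homeobox gene prrx1a was at -0.03 ± 0.58. Its paralog prrx1b, outside the naming rule and chosen after its values were seen, averaged 8.41 ± 3.34 CPM in MyrRSK and 2.72 ± 1.48 CPM in GFP melanomas (1.63 ± 0.40, adjusted p = 0.0884).

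The membrane glycoprotein gene gpnmb (ENSDARG00000062688, chromosome 19, 20730991 to 20752475) had the most negative estimate of the 6 members. In MyrRSK 1 to 6 it stood at 96.4, 11.4, 132, 80.1, 33.5 and 38.6 CPM. In GFP 1 to 6 it stood at 164, 250, 37.7, 39.0, 257 and 114 CPM. GFP melanomas fell into 4 with at least 114 CPM and 2 below 40 CPM, and all 6 MyrRSK libraries lay below the GFP median of 139 CPM, but the groups overlapped, with GFP 3 and GFP 4 among the middle MyrRSK levels. The mean was 65.3 ± 45.3 CPM in MyrRSK and 144 ± 97.7 CPM in GFP melanomas. The log2 fold change was -1.14 ± 0.60 (95% interval -2.43 to 0.15; edgeR p = 0.0797, adjusted p = 0.386), and the exact permutation p was 0.149.

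Macrophages, another source of gpnmb, had a marker mean that correlated with gpnmb at r = 0.191 over the 12 libraries (rho = 0.0629, permutation p = 0.552). Within groups r was 0.435 in MyrRSK (exact p = 0.412) and 0.453 in GFP melanomas (exact p = 0.338). It was 0.576 (permutation p = 0.0848) without MyrRSK 2 and GFP 5, the libraries farthest from the gpnmb median. With the macrophage score as a covariate the log2 fold change of gpnmb was -1.42 (edgeR adjusted p = 0.297). Of the 11 macrophage markers 0 were called by edgeR, DESeq2 or limma-voom. On the unadjusted p 1 passed upward and 1 downward, beside 7.18% and 8.33% of all genes tested. Estimates were positive for 7 and negative for 4, with a median of 0.51. The pair with the highest counts was marco (0.63 ± 0.36) and c1qa (0.79 ± 0.43). The smallest p was that of mpeg1.1, the perforin-like gene of macrophages, at -0.89 ± 0.30 (adjusted p = 0.175), named after its value was seen. Without both GFP 1 and GFP 2 the log2 fold change of gpnmb was -0.78, and -0.75 when the muscle score was the covariate. The protein Gpnmb is related in sequence to Pmel. The melanosome fibril gene pmela averaged 3290 ± 1630 CPM in MyrRSK and 8350 ± 7730 CPM in GFP melanomas (-1.34 ± 0.65, adjusted p = 0.345), and pmelb was at -1.66 ± 0.61 (adjusted p = 0.216). Neither was called by any of the 3 tools, and pmelb was lower at an unadjusted p under 0.05, as 8.33% of all genes tested were.

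The mitochondrial membrane gene mpv17 (ENSDARG00000032431, chromosome 20, 38696603 to 38741238), mutated in the zebrafish line transparent, which lacks most iridophores, had the narrowest range of levels. It lay between 2.27 and 4.56 CPM in MyrRSK melanomas, with a median of 3.5, and between 2.50 and 5.86 CPM in GFP melanomas, with a median of 3.89. The groups overlapped, though MyrRSK 2 lay below all GFP libraries, and GFP 3 and GFP 5 lay above all MyrRSK libraries. The log2 fold change was -0.19 ± 0.27 (95% interval -0.76 to 0.38, edgeR adjusted p = 0.769), and it was -0.05 without GFP 5 and -0.35 without both GFP 1 and GFP 2. Of 10 tested genes of the mpv17 family and of mitochondrial DNA maintenance, of 12 listed, edgeR and limma-voom called 0. DESeq2, which called 798 genes higher over the whole table, called 1 of them higher. On the unadjusted p 2 passed upward and 0 downward, beside 7.18% and 8.33% of all genes tested. The paralog mpv17l2 was at -0.06 ± 0.30, and the succinate-CoA ligase subunit genes suclg1 and sucla2 were at 0.45 ± 0.17 (adjusted p = 0.226) and 0.07 ± 0.21.

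The spread between tumours differed widely among the 7 genes. The biological coefficient of variation, the part of the relative spread that counting does not give, was 0.853 for alx4a, 0.805 for alx4b, 0.698 for gpnmb and 0.577 for pnp4a. It was 0.455 for ltk, 0.379 for impdh1b and 0.378 for mpv17, beside a median of 0.46 over all genes tested. Among genes of similar mean normalized count, ltk was above 78.9%, impdh1b above 66.2% and mpv17 above 14.4%. The same share was 97.4% for alx4a, 97.1% for alx4b, 94.6% for gpnmb and 90.7% for pnp4a. The intervals of the log2 fold changes were widest for alx4a, alx4b and gpnmb.

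Whether the 7 genes rise and fall together from tumour to tumour was measured by correlating log2 CPM over the 12 libraries. Of 21 pairs 0 passed after adjustment, and 2 had an unadjusted permutation p under 0.05. The highest were ltk with alx4a (r = 0.786, rho = 0.524, permutation p = 0.00672, adjusted p = 0.0706) and alx4a with alx4b (r = 0.753, rho = 0.664, permutation p = 0.00353, adjusted p = 0.0706). Within groups ltk and alx4a gave r = 0.674 in MyrRSK (exact p = 0.131) and 0.884 in GFP melanomas (exact p = 0.0625). For alx4a and alx4b r was 0.963 in MyrRSK (exact p = 0.0222) and 0.678 in GFP melanomas (exact p = 0.162). Without GFP 1 and MyrRSK 4, the 2 libraries farthest from the median of ltk, r was 0.681 for ltk with alx4a. That value still holds MyrRSK 2, the library lowest in alx4a. Without MyrRSK 2 and GFP 1, the 2 farthest from the median of alx4a, r was 0.619 for alx4a with alx4b. The correlations of pnp4a with ltk and alx4a were -0.0312 and 0.136, and that of impdh1b with alx4a was 0.0637.

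**Figure D3:**
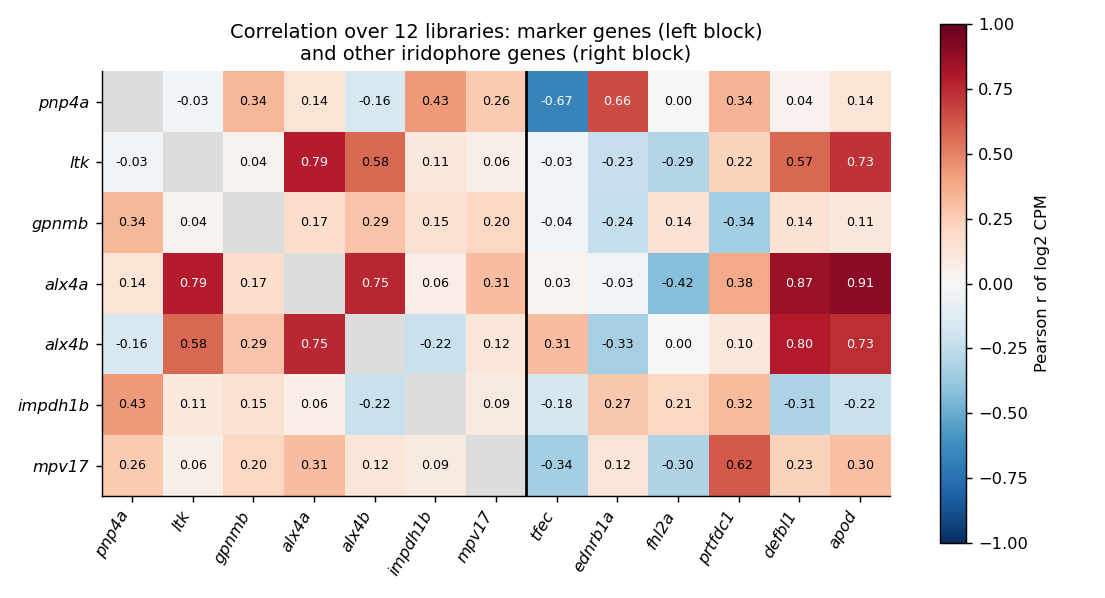
Pearson correlations of log2 CPM over the 12 libraries among the iridophore marker genes (left block) and between them and 6 other iridophore genes (right block), coloured from -1 in blue to 1 in red. The highest value between members is 0.786, for ltk with alx4a, and the highest between a member and another iridophore gene is 0.906, for alx4a with apod.

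A further 9 genes known from iridophores were listed, of which 6 were measured, and 0 were called by edgeR, DESeq2 or limma-voom or passed an unadjusted p of 0.05. Their median log2 fold change was -0.26. Over all genes tested edgeR called 0.406%, and 15.5% passed that unadjusted p. The endothelin receptor gene ednrb1a averaged 1260 ± 400 CPM in MyrRSK and 1050 ± 267 CPM in GFP melanomas (0.27 ± 0.26, adjusted p = 0.667). The defensin-like gene defbl1 averaged 61.3 ± 33.6 CPM in MyrRSK and 75.3 ± 76.2 CPM in GFP melanomas (-0.30 ± 0.59, adjusted p = 0.84). The transcription factor gene tfec was at -0.32 ± 0.33 (adjusted p = 0.674). The lipid carrier gene apod (apoda.1 in current naming) was at 0.41 ± 0.84.

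Correlations of the 7 genes with these 6 were added after the data had been seen, when apod already stood among the genes most like alx4a. The values of r ran from -0.671, for pnp4a with tfec (permutation p = 0.0167, adjusted p = 0.117), to 0.906. Of the 42 pairs 3 passed after adjustment and 8 had an unadjusted permutation p under 0.05. One of the 3 is alx4a with apod, which prompted the set, so its r is a description with no test, and the others are alx4a and alx4b with defbl1. For alx4a with defbl1, r was 0.867 (rho = 0.79, permutation p = 0.00012, adjusted p = 0.00504), and it was 0.695 (permutation p = 0.0273) without MyrRSK 2 and GFP 1, the libraries farthest from the median. Within groups it was 0.993 in MyrRSK (exact p = 0.00417) and 0.803 in GFP melanomas (exact p = 0.0764).

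For alx4a with apod, r was 0.906 and rho 0.685. Within MyrRSK r was 0.982 and within GFP melanomas 0.987. Without MyrRSK 2 and GFP 1, r over both groups together was 0.528, and r within each group was not computed without them. Both genes were highest within MyrRSK in MyrRSK 1 (alx4a 166 CPM, apod 104 CPM). Within GFP melanomas both were highest in GFP 6 (438 and 104 CPM). For alx4b with defbl1, r was 0.795 (rho = 0.713, permutation p = 0.00248, adjusted p = 0.0347), and 0.464 (permutation p = 0.177) without GFP 6 and MyrRSK 2. The adjusted p ranks this pair behind alx4a with apod, which prompted the set, so alx4b with defbl1 is also given as a description. On ranks only alx4b with apod passed (rho = 0.846, adjusted p = 0.029). Since apod prompted the set and alx4b correlated with alx4a at r = 0.753, that pair too is a description.

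**Figure D4:**
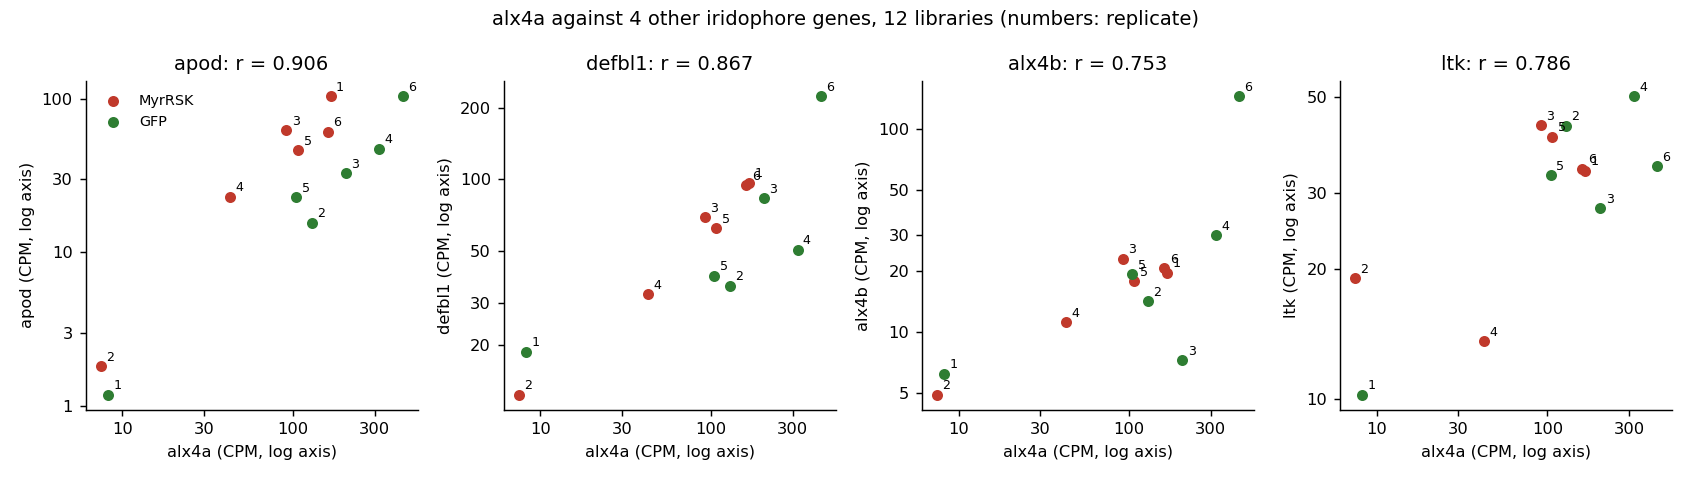
Level of alx4a against apod, defbl1, alx4b and ltk in the 12 libraries, in CPM on log axes. MyrRSK 2 and GFP 1 sit at the low end of alx4a with 7.46 and 8.24 CPM, and GFP 6 at the high end with 438 CPM.

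The libraries at the ends were the same for several of these genes. MyrRSK 2 and GFP 1 had 7.46 and 8.24 CPM of alx4a, 12.3 and 18.7 CPM of defbl1, and 1.82 and 1.18 CPM of apod, the lowest of all libraries in each case. They were not low in every iridophore gene. The gene fhl2a, also among the other iridophore genes, was highest of all libraries in GFP 1 (61.8 CPM) and next in MyrRSK 2 (49.8 CPM). GFP 6 had the highest alx4a, alx4b and defbl1 (225 CPM), and the lowest melanophore sum, 1180 CPM, with 430 CPM of pmela and 16.9 CPM of tyr, the melanin synthesis enzyme. In bulk tissue, fewer cells of a type and less RNA per cell cannot be told apart, so these levels do not count iridophores.

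Marker lists of other cells were set beside the members, also after the data had been seen. Of 35 pairs of a member and a list 0 passed after adjustment, and 4 had an unadjusted permutation p under 0.05. The most positive was impdh1b with the melanophore markers (r = 0.70, rho = 0.825, permutation p = 0.0117, adjusted p = 0.204), and within groups it was 0.942 in MyrRSK and 0.848 in GFP melanomas. The most negative was alx4a with the markers of osteoblasts and dermal mesenchyme (r = -0.741, rho = -0.643, permutation p = 0.0059, adjusted p = 0.204), which was -0.369 without the 2 farthest libraries. For gpnmb the xanthophore markers gave r = 0.638 (rho = 0.594, permutation p = 0.0232, adjusted p = 0.271). The part of these cells in the members' levels was not tested.

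In the lists themselves, edgeR called 0 of 9 melanophore, 0 of 9 xanthophore and 0 of 10 osteoblast and dermal markers tested. DESeq2 called 2 melanophore and 2 xanthophore markers lower and 2 osteoblast and dermal markers higher, and limma-voom called 0. Over the whole table DESeq2 called 798 genes higher and 775 lower. At an unadjusted edgeR p under 0.05 the melanophore list had 1 higher and 2 lower, the xanthophore list 0 and 4, and the osteoblast and dermal list 2 and 0. Of all genes tested 7.18% were higher and 8.33% lower at that threshold. Summed xanthophore levels were 470 to 2340 CPM in MyrRSK and 315 to 2170 CPM in GFP melanomas, and summed osteoblast and dermal levels were 70.7 to 298 CPM in MyrRSK and 25.7 to 142 CPM in GFP melanomas. Estimates were negative for 6 of 9 melanophore markers (median -0.40), 6 of 9 xanthophore markers (median -1.18) and 2 of 10 osteoblast and dermal markers (median 0.53). In each list the pair with the highest counts was, by log2 fold change, tyrp1b (0.25 ± 0.68) and pmela (-1.34 ± 0.65) for melanophores, slc2a15b (0.17 ± 0.63) and gch2 (0.51 ± 0.83) for xanthophores, and dcn (2.11 ± 0.49, adjusted p = 0.0749) and lum (0.39 ± 0.66) for osteoblasts and dermis. Named after their values were seen, the most negative estimates were those of oca2 among melanophore markers (-4.89 ± 1.12, adjusted p = 0.071) and aox5 among xanthophore markers (-3.82 ± 0.99, adjusted p = 0.0962). Both leaned on some GFP libraries. In GFP 1 and GFP 2 oca2 was at 234 and 441 CPM, but GFP 3 and GFP 6, at 3.68 and 2.95 CPM, lay within the MyrRSK range. For aox5 GFP 1 and GFP 2 had 38.2 and 62.2 CPM, but GFP 4 and GFP 6 had 0.913 and 0.701 CPM. The xanthophore marker with the smallest p was scarb1 (-2.77 ± 0.64, edgeR adjusted p = 0.0733), also named after its values were seen. Its groups did not overlap, with 11.2 to 15.5 CPM in MyrRSK and 19.1 to 308 CPM in GFP melanomas. Such a separation was seen in 1.73% of all genes tested. The most positive estimates in the 2 lists were trpm1b (0.84 ± 0.33) and csf1ra (0.62 ± 0.42).

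Of 9 regulators of the pigment lineages 0 were called by any of the 3 tools, and 0 passed an unadjusted p of 0.05. Over all genes tested edgeR called 0.406%, and 15.5% passed that unadjusted p. The master regulator gene mitfa, which the vector also supplies, averaged 257 ± 43.7 CPM in MyrRSK and 297 ± 110 CPM in GFP melanomas (log2 fold change -0.21 ± 0.24). The neural crest factor gene sox10 was at -0.08 ± 0.30, the receptor gene kita at -0.31 ± 0.42 and tfap2c at 0.10 ± 0.46.

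**Figure D5:**
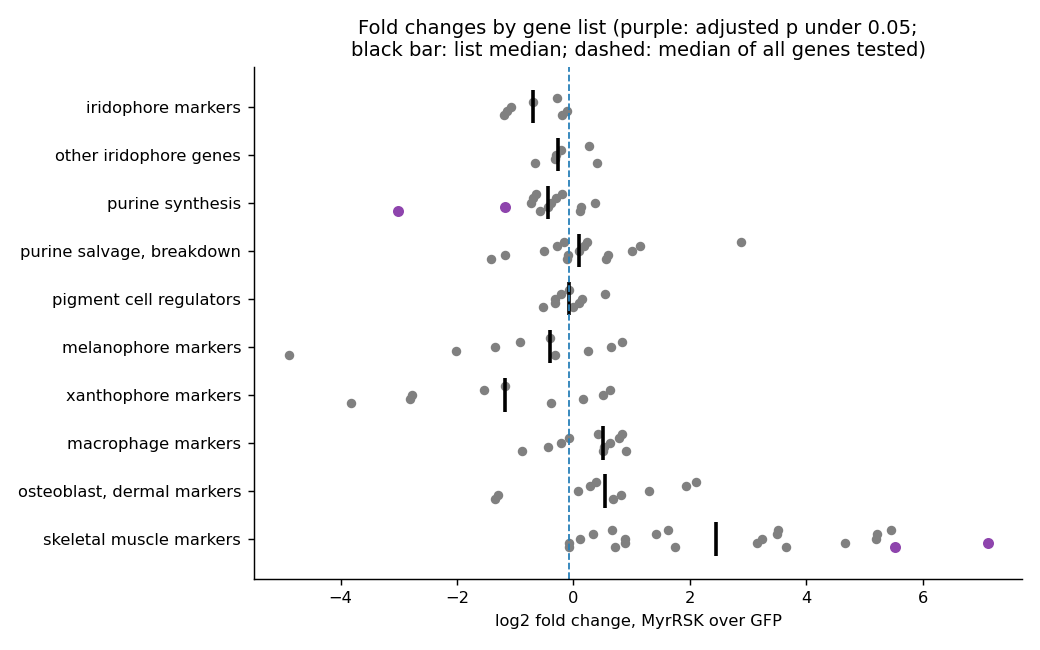
Log2 fold changes of MyrRSK over GFP for every tested gene of 10 lists (1 point a gene, purple where called), with the list median as a bar and the median of all genes as a dashed line. The median of the 7 iridophore marker genes is -0.69 and that of the skeletal muscle markers 2.45.

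The genes whose levels followed each member most closely over the 12 libraries were taken from 16066 candidates by Pearson r of log2 CPM. For pnp4a they were RPAP3 (2 of 2) (0.869), nlk1 (0.828) and fam21c (0.811). For ltk they were SNORA32 (0.852), COQ5 (0.844) and mgat4a (0.843), and for gpnmb KCNS1 (0.912), ftr32 (0.901) and ftr36 (0.899). For alx4a they were znf384l (0.921), zcchc11 (0.911) and apod (0.906), and for alx4b mov10b.1 (0.89), btr24 (0.885) and btr26 (0.882). For impdh1b they were jam3b (0.907), scaf11 (0.901) and pex5 (0.88), and for mpv17 rilpl1 (0.944), exoc2 (0.88) and dcaf7 (0.877). These are the extremes of many correlations and are given as a description.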

How the data were processed

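One gene table was analysed, holding raw and normalized columns for 12 libraries grouped by the sample titles. The raw columns are read counts per gene as deposited by the authors, not normalized. The normalized columns are a signal made by the authors, the count divided by 1 size factor per library (largest relative spread of the ratio 9.84e-10). The log2 fold changes, their standard errors, the test statistic (a score) and the p-values in the table are the authors' deposited statistics. Per the submitters' processing notes, the tools were HTSeq 0.6.0, STAR 2.6.1d and DESeq2, and the build was Zv9. Annotation release, strand setting and DESeq2 version: not given in the sources used here. The lowest mean normalized count listed is 5.08, and genes under it are not analysed here. No 2 libraries agreed within counting noise (smallest chi-square per degree of freedom 177 over 66 pairs).

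The count test was edgeR's robust quasi-likelihood test (edgeR 4.0.16, R 4.3.3) with filterByExpr, TMM scaling and no covariate, Benjamini-Hochberg adjusted over 26866 genes and called below 0.05. The procedure was tested on simulated data. Log2 CPM has a prior count of 1. The F statistic and the fold change gave each standard error. Single differences were tested by exact permutation, and correlations by 100000 permutations, adjusted within each family. DESeq2 1.42.0, limma-voom (limma 3.58.1), other scalings, filters and pseudocounts, marker scores as covariates, a replicate block and each library left out were the alternatives. Figures used matplotlib 3.10.9.

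The members, the gene lists and the tests were chosen with earlier results of these data known. Named genes were all members, set paralogs and partners, up to 4 called genes per list or otherwise the 2 with the highest mean count, and the 3 most alike genes per member with a mean normalized count of at least 50. The listed names tjp1a, akap12a, lypc, pnp4b and mpv17l were not analysed here. Another gene of this rule, and the counts of the list that holds it, are not reported here.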

Additional observations from a re-analysis of the deposited data

Results flagged for a closer look

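In the GFP group, library GFP 1 stood far below the others for 2 of the genes looked at. Its level of ltk was 10.2 CPM, where the other 5 GFP libraries had 27.7 to 50.4 CPM. Its level of alx4a was 8.24 CPM, where the others had 104 to 438 CPM. The gap to the nearest library, on the log2 CPM scale, was 0.626 of the group's range for ltk and 0.639 for alx4a, just above Dixon's critical ratio for 6 samples. Of 44 sets of 6 libraries examined these 2 passed, and chance flags about 1 in 20. Without GFP 1 the log2 fold change was -0.30 for ltk and -1.32 for alx4a, and neither was called.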

How the results depend on the processing

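In every alternative run, 0 of the 6 members were called. The whole-table count, 78 higher and 31 lower, depended on the setting: 798 higher and 775 lower by DESeq2, 134 and 85 with the macrophage score as a covariate, 1 and 0 with the muscle score, 23 and 7 without both GFP 1 and GFP 2, 65 lower with a mean count of at least 100, 20 lower by limma-voom, and 1 to 104 higher and 0 to 84 lower with single libraries left out. The replicate block gave 6 higher and 0 lower (1855 and 1310 unadjusted), with 0 of the purine synthesis genes lower. Same-numbered libraries correlated at -0.148 to 0.103, so the numbers were not taken as pairs. Under the block impdh1b was at -0.69 (edgeR adjusted p = 0.369), alx4b at -0.45 and pnp4a at -0.08. The muscle score, which nearly follows the groups, turned ltk to 0.69 and alx4a to 0.40, and moved pnp4a to -0.84 and alx4b to -0.09. Without both GFP 1 and GFP 2 pnp4a was at -0.45 and ltk at -0.25. The macrophage score moved pnp4a to -0.01, and mpv17 to 0.00. The cause was not tested. With single libraries left out, log2 fold changes ran from -0.55 to 0.23 for pnp4a, -0.30 to 0.05 for ltk, -1.47 to -0.89 for gpnmb, -1.32 to -0.68 for alx4a, -1.42 to 0.07 for alx4b, -0.83 to -0.54 for impdh1b and -0.29 to -0.05 for mpv17. Differences in mean log2 CPM ran from -0.33 to 0.21 for pnp4a, -0.38 to 0.14 for ltk, -0.76 to 0.15 for alx4b, -1.65 to -0.25 for alx4a and -0.87 to -0.49 for impdh1b.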
